A study of Homo sapiens with 12 samples.

Results

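The genes described here are 6 of the 58051 genes in the count table: the serum amyloid A genes SAA1 and SAA2, the long pentraxin PTX3, the lipocalin LCN2 and the complement genes C3 and CFB. They were taken by symbol, and each symbol matched 1 row. SAA1 was selected on its rise with siNELFA against siControl, so its values in that contrast, and in the contrast of the double with the single knockdowns, are a description with no test. MDA-MB-231, a mesenchymal triple-negative breast cancer cell line, was transfected with siRNA pools from one supplier in DharmaFECT. The 4 groups were siControl (a non-targeting pool), siNELFA (a pool against NELFA, a subunit of the negative elongation factor that holds RNA polymerase II near promoters), siYAP (a pool against YAP1, the Hippo pathway coactivator) and siNELFA+siYAP (both pools). Each group had 3 libraries of ribosomal-RNA-depleted total RNA. The labels give 50 to 100 nM siRNA and harvests at 48 and 72 hours without saying which library belongs to which hour, while the study's methods give 72 hours for sequencing and call the replicates independent. The library names of the double knockdown all carry N1, the tag of replicate 1 in the other groups, followed by an index, so whether those 3 came from separate transfections is not clear from the labels, and p-values measure only the spread between libraries.

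Acute-phase proteins are secreted during infection and injury, mainly by the liver and also by epithelial, stromal and tumour cells. IL-6 family cytokines act through STAT3 and C/EBP factors, and IL-1 and TNF act through NF-kappaB, and many acute-phase promoters need both arms. SAA1 and SAA2 encode apolipoproteins of high-density lipoprotein that bind lipids and signal through FPR2 and Toll-like receptors, PTX3 is a pattern recognition molecule made locally in response to IL-1 and TNF, LCN2 withholds iron from bacteria by binding siderophores, C3 is the central complement component, and CFB is the protease subunit of the alternative pathway convertase.

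SAA1 (ENSG00000173432) lies at chr11:18266260-18269977 on the plus strand of GRCh38 and SAA2 (ENSG00000134339) at chr11:18239223-18248668 on the minus strand, with 17591 bases between them. Their coding sequences, taken from the canonical GENCODE v44 transcripts, are both 369 bases long and agree at 358 positions (97.0%), with 186 bases as the longest identical run. The first 300 bases of each are shown because sequence alone cannot assign a read that lies where the genes are identical. Capitals mark the 9 positions of these 300 bases that differ.
SAA1: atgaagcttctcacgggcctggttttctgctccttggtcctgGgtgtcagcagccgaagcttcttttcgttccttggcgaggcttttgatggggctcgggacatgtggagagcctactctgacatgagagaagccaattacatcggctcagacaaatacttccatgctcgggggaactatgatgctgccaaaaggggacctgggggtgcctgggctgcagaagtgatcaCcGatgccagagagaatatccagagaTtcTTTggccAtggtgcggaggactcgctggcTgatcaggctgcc
SAA2: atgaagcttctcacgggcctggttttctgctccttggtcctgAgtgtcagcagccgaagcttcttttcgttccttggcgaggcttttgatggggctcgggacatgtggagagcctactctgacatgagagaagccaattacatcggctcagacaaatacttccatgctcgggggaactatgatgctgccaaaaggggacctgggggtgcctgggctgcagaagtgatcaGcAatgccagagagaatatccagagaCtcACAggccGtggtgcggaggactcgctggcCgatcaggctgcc
Of the 444 windows of 75 bases in the SAA1 transcript, 117 (26.4%) also occur exactly in an SAA2 transcript, and of its 369 windows of 150 bases 37 do (10.0%). Most read-length windows of SAA1 therefore hold at least 1 base that tells it from SAA2, but a part of the reads of either gene can match the other exactly.

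The RefSeq promoter table (GRCh38.p14) held 3 of the 6 genes, LCN2, CFB and PTX3, and had no entry for SAA1, SAA2 or C3. The 250 bases before each RefSeq start site were searched for motifs of the factors named above. For LCN2 and CFB the RefSeq start lies inside the span that GENCODE v44 gives the gene, which begins at an earlier start of another transcript, and 74 and 120 of the 250 bases fall in annotated exons. The longest stretch outside exons is shown for LCN2 and PTX3, whose siRNA patterns differed, and none for CFB, whose match lies in an exon. Capitals mark matches, on either strand, to the NF-kappaB consensus known as the kappaB site and to the C/EBP motif TTGCNNAA, and no kappaB match overlaps a C/EBP match. The LCN2 stretch is chr9:128149265-128149440 and the PTX3 stretch chr3:157436600-157436849, both on the plus strand.
LCN2: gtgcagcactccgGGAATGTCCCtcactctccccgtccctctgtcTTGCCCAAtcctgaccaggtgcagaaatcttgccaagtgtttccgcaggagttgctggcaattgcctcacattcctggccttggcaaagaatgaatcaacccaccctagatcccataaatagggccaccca
PTX3: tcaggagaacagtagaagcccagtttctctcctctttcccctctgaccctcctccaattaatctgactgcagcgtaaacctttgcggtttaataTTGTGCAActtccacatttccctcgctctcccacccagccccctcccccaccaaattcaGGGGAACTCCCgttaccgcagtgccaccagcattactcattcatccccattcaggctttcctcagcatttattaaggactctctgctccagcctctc
In the 250 bases LCN2 and CFB each held 1 kappaB match, PTX3 held 2 overlapping ones, and LCN2 and PTX3 each held 1 C/EBP match. Over the same 250 bases, 9.96% of the 35116 promoters of full length in the table held a kappaB match and 9.05% a C/EBP match. Such matches are letters in a window and not measured sites.

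Counts per library ran from 9608145 to 18803104. Levels below are CPM, the counts scaled to library size, after TMM scaling, which corrects for the make-up of each library. The targets were depleted as labelled: NELFA stood at 25.3 to 27.9 CPM in siControl, 7.11 to 9.96 in siNELFA, 22.2 to 33.8 in siYAP and 6.35 to 8.20 in the double knockdown, and YAP1 at 247 to 302, 247 to 292, 37.7 to 46.2 and 40.1 to 44.1 CPM. The 6 markers of MDA-MB-231 cells summed to 4440 to 6169 CPM. All 8 hepatocyte markers together reached at most 2.31 CPM, with albumin at 0 in every library, and of the 8 leukocyte markers, which summed to 93.7 to 204.8 CPM, CD68 made most of the sum, CSF1R reached 15.8 CPM, PTPRC reached at most 0.385 CPM and CD3E and MPO were at 0. Replicate 1 (tag N1) of siControl, siNELFA and siYAP stood apart from replicates 2 and 3: the chi-square per degree of freedom between replicates was 80.9 to 115 for pairs with replicate 1 and 11.3 to 17.9 for the other pairs of these groups, and 2.78 to 14.3 within the double knockdown. CDH1, the E-cadherin gene, is among the genes listed as absent or low in MDA-MB-231 cells. It stood at 24.9, 47.0 and 16.3 CPM in replicate 1 of siControl, siNELFA and siYAP and at 0 to 0.936 CPM in the other 9 libraries. In bulk RNA, more cells of a kind and more RNA per cell cannot be told apart.

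The members were well expressed in siControl, the MDA-MB-231 cells transfected with the non-targeting pool. On the length-corrected TPM scale, SAA1 averaged 842 TPM in siControl and ranked 97 among the 27391 gene lines above 0, ahead of SAA2 (587 TPM, rank 155), C3 (346 TPM, rank 251), CFB (192 TPM, rank 475), LCN2 (122 TPM, rank 859) and PTX3 (60.5 TPM, rank 2050). The order holds for the means only, since SAA2, CFB and LCN2 spread widely between replicates. SAA2 ran from 333 to 846 TPM and SAA1 from 692 to 1035 TPM, and CFB from 28.4 to 508 TPM. LCN2 measured 283, 54.7 and 28.2 TPM in replicates 1, 2 and 3 and lay below PTX3 (56.8 to 65.4 TPM) in the last 2.

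**Figure D1:**
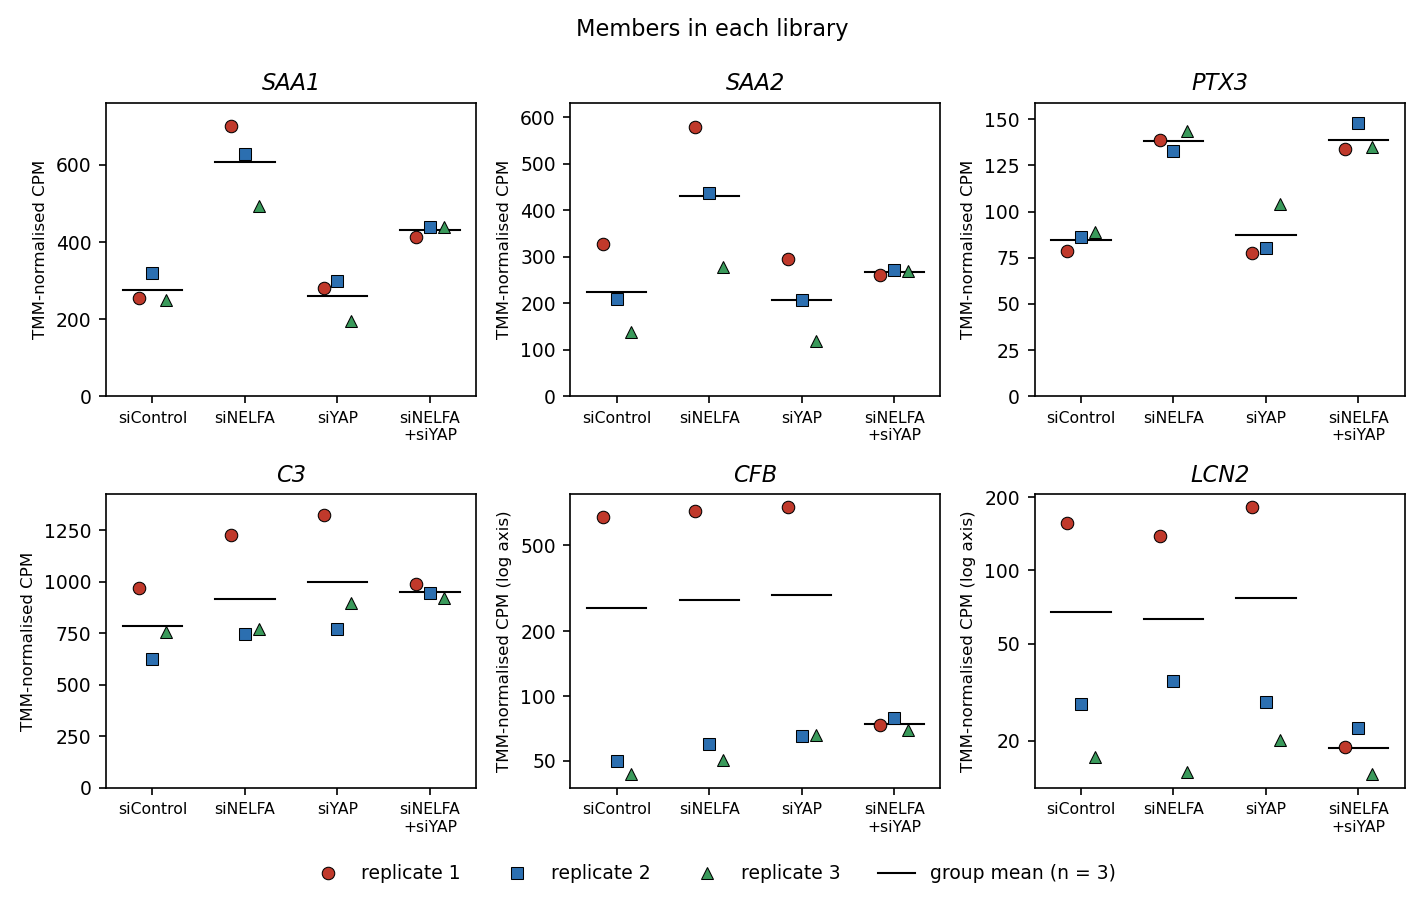
TMM-normalised CPM of the 6 genes in each of the 12 libraries, with replicates 1, 2 and 3 as circles, squares and triangles and the group mean of 3 libraries as a line (the axes of CFB and LCN2 are logarithmic). SAA1 and PTX3 in siNELFA lie above every siControl library, while CFB and LCN2 are high in replicate 1 of the first 3 groups and in no other library.

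SAA1, the most abundant of the 6 by mean TPM in siControl, was highest with siNELFA and intermediate with both siRNAs. Its level was 256, 320.5 and 249 CPM in siControl replicates 1, 2 and 3. It stood at 700.3, 629 and 494 CPM with siNELFA, at 281, 299.7 and 196 with siYAP and at 412, 439 and 440.2 with both siRNAs. Every siNELFA library and every double-knockdown library lay above every siControl and siYAP library, and siControl and siYAP overlapped. The group means were 275 ± 39.7, 608 ± 105, 259 ± 55.3 and 430.4 ± 16.0 CPM (SD, n = 3). Within a replicate number, siNELFA stood at 2.74, 1.96 and 1.99 times siControl, and the log2 fold change of siNELFA against siControl, which the choice of SAA1 used, was 1.15 (SE 0.19).

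The addition of siNELFA to siYAP is the contrast that uses none of the libraries SAA1 was selected on. There SAA1 was 0.73 higher on the log2 scale (SE 0.17), without overlap of the groups, and did not pass the adjusted threshold of 0.05 (Benjamini-Hochberg adjusted p = 0.163 over 17167 genes, edgeR's quasi-likelihood test). Without siYAP replicate 1 the difference was 0.80 (SE 0.13, adjusted p = 0.00167 by edgeR), in a fit where 16.5% of all genes passed. The p-values measure only the spread between libraries. The labels do not say whether the double-knockdown libraries came from separate transfections. Against siControl the double knockdown gave 0.63 (SE 0.13, edgeR adjusted p = 0.0802), a contrast that shares its siControl libraries with the one SAA1 was selected on. Without siControl replicate 1, where 24.4% of all genes passed, the double knockdown gave 0.59 against siControl (edgeR adjusted p = 0.000101). Against siNELFA the double knockdown stood at -0.50 on the log2 scale (SE 0.14, edgeR adjusted p = 0.735), again without overlap, and this contrast shares its siNELFA libraries with the selection. siYAP alone gave -0.09 (SE 0.22, edgeR adjusted p = 1.00).

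SAA2, the near-identical neighbour of SAA1, also stood higher with siNELFA, on top of a spread between replicates that SAA1 did not show. It measured 329, 209 and 138 CPM in siControl replicates 1, 2 and 3. It stood at 579, 437 and 277 CPM with siNELFA, at 295, 207 and 118 with siYAP and at 261, 273 and 270.5 with both siRNAs. The groups overlapped because replicate 1 of siControl lay above replicate 3 of siNELFA, yet within each replicate number siNELFA was higher, at 1.76, 2.09 and 2.01 times siControl. The log2 fold change was 0.94 (SE 0.38, edgeR adjusted p = 1.00) without pairing. With a block for replicate number, which pairs the siControl, siNELFA and siYAP libraries, it was 0.97 (SE 0.09, edgeR adjusted p = 0.000191). Replicate 1 stood at 1.90, 1.62 and 1.81 times the mean of replicates 2 and 3 in siControl, siNELFA and siYAP. The 3 double-knockdown libraries differed little (SD 6.01 CPM) and lay below every siNELFA library, at -0.69 against siNELFA (SE 0.24, edgeR adjusted p = 0.735) and 0.37 against siYAP (SE 0.29, edgeR adjusted p = 0.561).

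The read-through gene SAA2-SAA4 (chr11:18231423-18248635, minus strand) covers most of SAA2, and its counts were 50.7 to 57.6% of those of SAA2 in the 12 libraries, whereas its TPM was 0.562 to 2.43% of that of SAA2. Its counts moved with SAA2, at 1.93, 2.20 and 1.99 times siControl with siNELFA. How reads in overlapping genes were assigned is not given in the sources used here, so SAA2 counts are those of a shared locus. The count of SAA2 was 55.4 to 129% of that of SAA1, with the highest share in siControl replicate 1. SAA4, the constitutive serum amyloid A gene overlapped by the read-through gene on the same strand, measured 31.0, 13.7 and 7.82 CPM in siControl and 47.1, 30.6 and 18.4 in siNELFA. It rose by 1.00 with the block (SE 0.17, edgeR adjusted p = 0.00549), where 5.21% of all genes passed. With no block it did not pass by edgeR, with or without replicate 1.

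PTX3 (ENSG00000163661, chr3:157436850-157443633, plus strand, within the span of VEPH1 on the opposite strand) had the smallest spread of log2 CPM in siControl, siNELFA and siYAP, though not in the double knockdown. It measured 78.7, 86.5 and 88.9 CPM in siControl replicates 1, 2 and 3. It stood at 139, 133 and 143 CPM with siNELFA, at 77.8, 80.5 and 104 with siYAP and at 134, 148 and 135 with both siRNAs. Both groups that received siNELFA lay above both that did not, with no overlap, and the 2 groups of each kind overlapped. The log2 fold change with siNELFA was 0.71 (SE 0.15, edgeR adjusted p = 1.00) and 0.71 with the block (SE 0.10, edgeR adjusted p = 0.00261). In the double knockdown it was 0.70 against siControl (SE 0.11, edgeR adjusted p = 0.0547), 0.66 against siYAP (SE 0.14, edgeR adjusted p = 0.138) and 0.01 against siNELFA (SE 0.10, edgeR adjusted p = 0.993). Within a replicate number, siNELFA stood at 1.76, 1.54 and 1.61 times siControl, and replicate 1 was 0.842 to 1.01 times the mean of replicates 2 and 3. VEPH1 had 929 counts over all 12 libraries, fewer than PTX3 had in most single libraries.

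CFB (ENSG00000243649, chr6:31945650-31952086, plus strand) differed more between replicates than between siRNAs. It measured 675, 50.2 and 43.3 CPM in siControl replicates 1, 2 and 3. It stood at 724, 60.1 and 50.7 CPM with siNELFA, at 749, 65.2 and 66.1 with siYAP and at 73.4, 78.9 and 69.7 with both siRNAs. Replicate 1 of the first 3 groups was high, at 14.4, 13.1 and 11.4 times the mean of replicates 2 and 3, and the double knockdown had no such library. The lowest of these 3 was 10.2 times the highest of the other 6, and that ratio ranked 15 among the 18525 genes that passed the filter. The log2 fold change of the double knockdown against siControl was -1.82 (SE 1.01, edgeR adjusted p = 0.386) with all libraries. Without siControl replicate 1, where 24.4% of all genes passed, it was 0.66 (SE 0.09, edgeR adjusted p = 9.44e-05), so 1 library set its sign. Against siYAP the change went from -2.00 to 0.17 and against siNELFA from -1.92 to 0.41 when replicate 1 was left out. Within a replicate number, siNELFA stood at 1.07, 1.20 and 1.17 times siControl and siYAP at 1.11, 1.30 and 1.53 times, although on the TPM scale the group difference with siNELFA turned from 0.11 to -0.12 on the log2 scale.

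The counts of CFB are also those of a shared locus. The read-through gene ENSG00000244255 (chr6:31927698-31952048, plus strand) had 92.0 to 100.4% of the counts of CFB in each library, while its TPM was at most 1.17% of that of CFB. C2, the complement gene whose last bases overlap the start of CFB, showed the same replicate pattern, at 59.8, 9.63 and 2.17 CPM in siControl and 4.08 to 4.80 CPM in the double knockdown.

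LCN2 (ENSG00000148346, chr9:128149071-128153453, plus strand) followed CFB. It measured 156.5, 28.2 and 17.2 CPM in siControl replicates 1, 2 and 3. It stood at 139, 35.0 and 14.9 CPM with siNELFA, at 182, 28.8 and 20.2 with siYAP and at 18.9, 22.5 and 14.5 with both siRNAs. Replicate 1 stood at 6.89, 5.57 and 7.42 times the mean of replicates 2 and 3, and the double knockdown lay within the range of replicates 2 and 3 of the other groups except for 1 library just below it. Within a replicate number siNELFA stood at 0.887, 1.24 and 0.867 times siControl, in no single direction. The double knockdown gave -1.87 against siControl (SE 0.79, edgeR adjusted p = 0.267) with all libraries and -0.30 (SE 0.20, edgeR adjusted p = 0.318) without siControl replicate 1.

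C3 (ENSG00000125730, chr19:6677704-6730562, minus strand) showed the replicate difference in a mild form. It measured 972, 625 and 758 CPM in siControl replicates 1, 2 and 3. It stood at 1230, 747 and 771 CPM with siNELFA, at 1324, 773 and 898 with siYAP and at 992, 944 and 921 with both siRNAs. Replicate 1 was the highest library of each of the first 3 groups, at 1.41, 1.62 and 1.59 times the mean of replicates 2 and 3, and all groups overlapped. The log2 fold change was 0.22 with siNELFA (SE 0.26, edgeR adjusted p = 1.00, and -0.14 on the TPM scale), 0.34 with siYAP (SE 0.26, edgeR adjusted p = 1.00) and 0.26 with both (SE 0.17, edgeR adjusted p = 0.449). Without siControl replicate 1, where 24.4% of all genes passed, the double knockdown gave 0.46 against siControl (SE 0.07, edgeR adjusted p = 0.000151). GPR108, which overlaps the start of C3 on the same strand, had 9911 counts over the 12 libraries, against 8972 to 17122 for C3 in a single one.

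**Figure D2:**
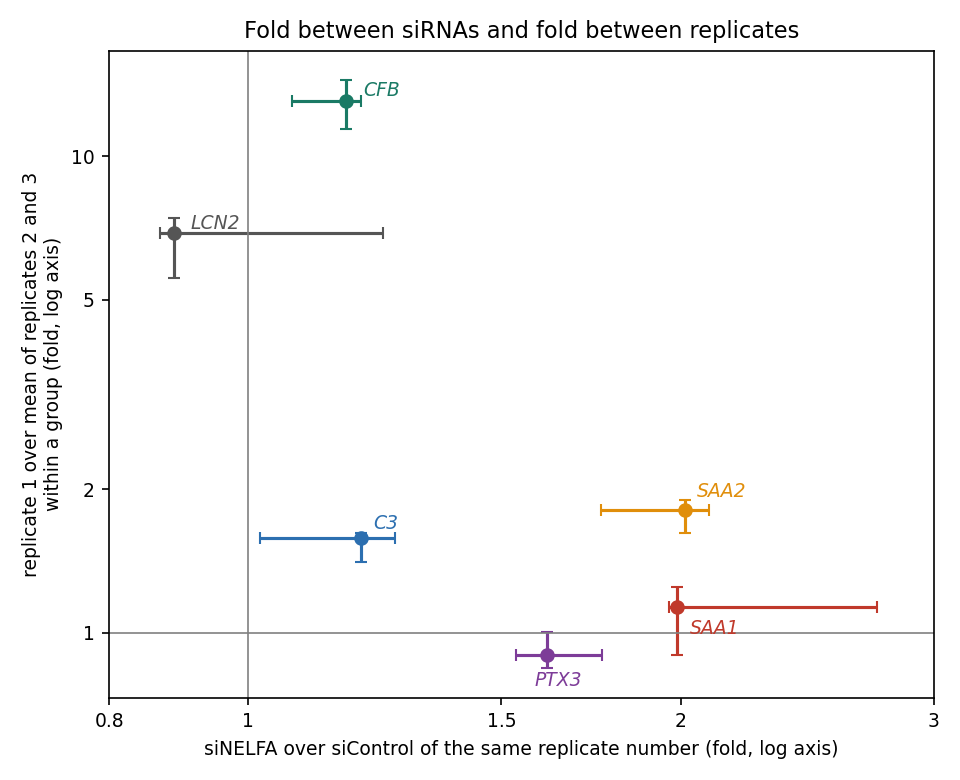
For each gene, the fold of siNELFA over siControl within a replicate number (horizontal, log axis) against the fold of replicate 1 over the mean of replicates 2 and 3 within siControl, siNELFA and siYAP (vertical, log axis), with points at the median of 3 values and bars from the lowest to the highest. SAA1 and PTX3 lie to the right near 1 on the vertical axis, CFB and LCN2 lie high near 1 on the horizontal axis, and SAA2 is raised on both.

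As a description over 12 libraries that share replicate and group, the Pearson correlation of log2 CPM was 0.951 between LCN2 and CFB, 0.812 between C3 and CFB, 0.812 between SAA1 and SAA2 and 0.767 between SAA1 and PTX3, but 0.042 between SAA1 and CFB and -0.407 between PTX3 and LCN2. In 3 of the 6 genes, LCN2, C3 and CFB, all 3 libraries of replicate 1 lay above the other 6 libraries of the first 3 groups, against 17.3% of all genes tested. CDH1 moved with these genes, and its part in them was not tested.

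With siNELFA, the counts leave out SAA1, which was selected on this contrast. None of the 5 other members passed the adjusted threshold by edgeR without pairing, where 0.00564% of the 17727 genes tested did, and 2 (SAA2 and PTX3) had an unadjusted p under 0.05, where 4.46% did. With the replicate block SAA2 and PTX3 passed, where 5.21% of all genes did, and by DESeq2 PTX3 passed, where 0.158% did. Without replicate 1 none of the 5 passed by edgeR, where 0.0996% of genes did, and SAA2 and PTX3 had an unadjusted p under 0.05, where 14.3% did. PTX3 was the 1 member of the 5 whose groups did not overlap, higher with siNELFA, as in 6.24% of all genes. Within all 3 replicate numbers, 4 of the 5 (all but LCN2) were higher with siNELFA, against 22.1% of all genes.

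With siYAP alone, no member passed by edgeR without pairing (0.00578% of genes did) or with the block (0.0173% did). With all libraries and no block, no member had an unadjusted p under 0.05 by edgeR or by DESeq2, which gave no p for CFB. With the block C3 and CFB did, where 9.11% of genes did. LCN2, C3 and CFB were higher within all 3 replicate numbers, against 18.2% of all genes, and SAA2 was lower, against 18.4%. CFB had the largest of these differences, 0.37 on the log2 scale with the block (SE 0.12, edgeR adjusted p = 0.525). Without replicate 1 no member passed by edgeR, and CFB, at 0.49 (SE 0.12, edgeR adjusted p = 0.974), was the 1 member with an unadjusted p under 0.05. In that fit 781 of 17889 genes had one.

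With both siRNAs against siControl, the counts leave out SAA1, whose selection used the same siControl libraries. None of the 5 other members passed by edgeR (0.428% of genes did), with PTX3 and LCN2 at an unadjusted p under 0.05 (18.5% were). PTX3 passed by DESeq2, where 7.65% of genes did. Without siControl replicate 1, 4 of the 5 (all but LCN2) passed and were higher, where 24.4% of all genes passed. SAA1 had an unadjusted p under 0.05 by edgeR, and passed by DESeq2 and without siControl replicate 1. Against siYAP, no member passed by edgeR (0.035% of genes did), with SAA1, PTX3 and LCN2 at an unadjusted p under 0.05 (15.5% were). SAA1 and PTX3 passed by DESeq2 (4.36% of genes did), and SAA1, SAA2 and PTX3 passed without siYAP replicate 1 (16.5% did). SAA1 and PTX3 were the members whose groups did not overlap and were higher over siYAP, against 13.8% of genes. Over siControl this held for PTX3 alone of the 5 members besides SAA1, against 15.9% of genes, and for SAA1 in libraries it was selected on. Against siNELFA, no member passed by edgeR (0.00573% of genes did) or by DESeq2, with SAA2 and LCN2, besides SAA1, at an unadjusted p under 0.05 by edgeR (6.62% were). SAA2 and, in libraries it was selected on, SAA1 lay below siNELFA without overlap, against 7.4% of genes, and without siNELFA replicate 1 C3 passed at 0.32 higher (SE 0.05, edgeR adjusted p = 0.0166), where 1.25% of genes passed.

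**Figure D3:**
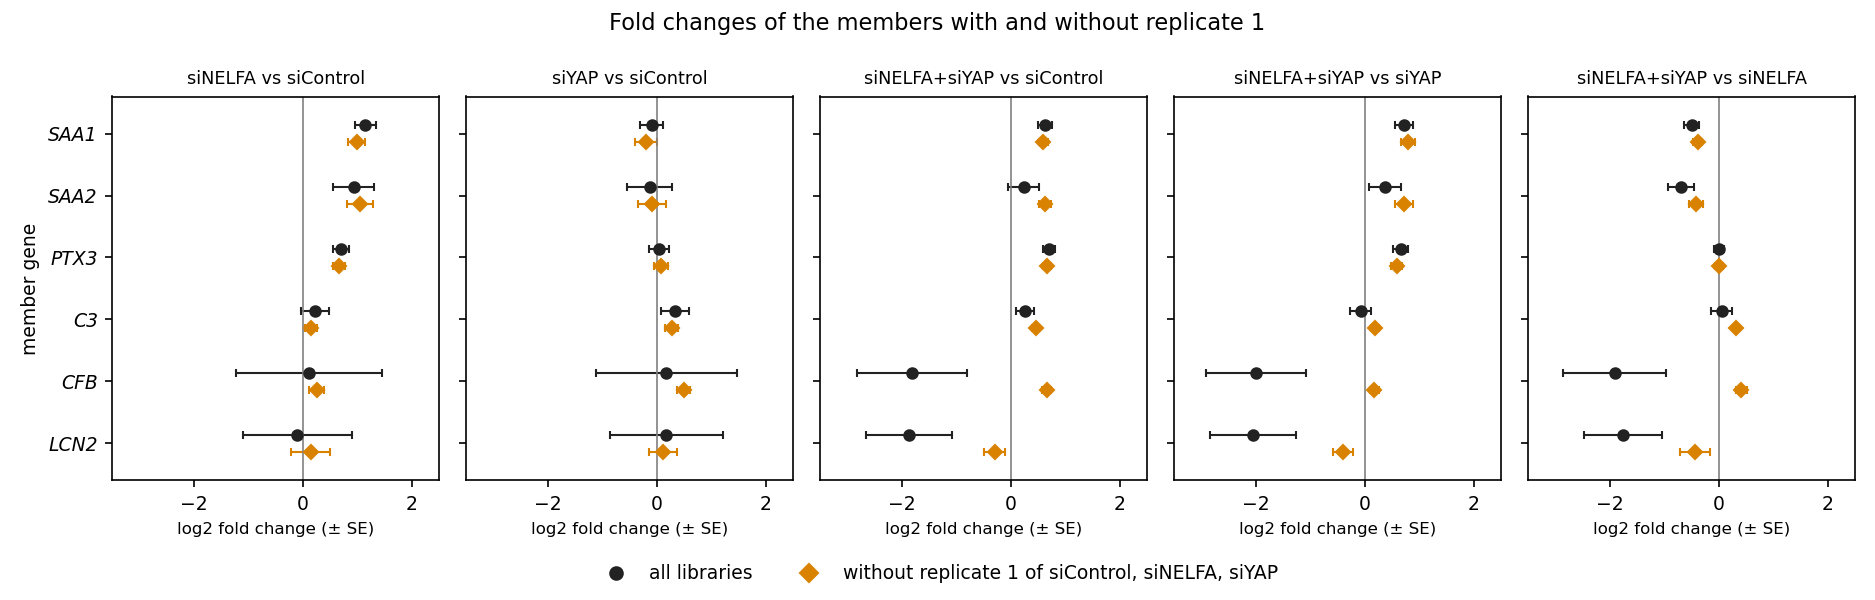
Log2 fold change with its standard error for the 6 genes in 5 comparisons, with all libraries (circles) and without replicate 1 of siControl, siNELFA and siYAP (diamonds). SAA1, SAA2 and PTX3 keep their sign in all 5 comparisons, and CFB turns from -1.82 to 0.66 in the double knockdown against siControl.

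The double knockdown was set against the sum of the single ones on the log2 scale. The difference was -0.41 for SAA1 (SE 0.26, a description), -0.56 for SAA2 (SE 0.52), -0.04 for PTX3 (SE 0.19), -1.95 for LCN2 (SE 1.43), -0.29 for C3 (SE 0.34) and -2.11 for CFB (SE 1.83). No member passed by edgeR or DESeq2 or had an unadjusted p under 0.05 by either, and DESeq2 gave no p for 1 of the 6. Without replicate 1 of the first 3 groups the values were -0.20 for SAA1, -0.33 for SAA2, -0.08 for PTX3, -0.55 for LCN2, 0.04 for C3 and -0.09 for CFB, and their standard errors ran from 0.13 to 0.46.

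The cytokines that switch on acute-phase genes were read from a list of 10. IL6, which drives the STAT3 arm, measured 279, 73.4 and 99.1 CPM in siControl replicates 1, 2 and 3. It stood at 458, 195 and 292 CPM with siNELFA, at 220.2, 65.5 and 87.9 with siYAP and at 244.5, 259.7 and 244.1 with both siRNAs. It was higher with siNELFA in each replicate number and higher in replicate 1 of each of these 3 groups. IL1A, an activator of the NF-kappaB arm, measured 85.8, 45.0 and 74.6 CPM in siControl and 115, 87.5 and 138 in siNELFA. With the block, 2 of the 6 cytokines tested rose, IL6 by 1.23 (SE 0.14, edgeR adjusted p = 0.000659) and IL1A by 0.76 (SE 0.12, edgeR adjusted p = 0.00482), and IL11, an IL-6 family cytokine, fell by 1.22 (edgeR adjusted p = 0.00244), where 5.21% of all genes passed. The median of the 6 was 0.65, against 0.01 over all genes. With all libraries and no block none passed by edgeR or DESeq2, and IL1A was the 1 cytokine with an unadjusted p under 0.05 by edgeR. Without replicate 1, IL6 passed with no block at 1.51 (SE 0.20, edgeR adjusted p = 0.0456). IL1B measured 78.1, 58.5 and 99.8 CPM in siControl and 169, 191 and 155 in the double knockdown, at 1.11 over siControl (SE 0.20, edgeR adjusted p = 0.0735). IL17A and IL22 were at 0 in all libraries, and TNF did not exceed 2.05 CPM.

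Of 18 receptors and signal carriers of these cytokines, all of which were tested, 2 rose with siNELFA in the block fit: IL1RAP, the IL-1 receptor accessory chain, by 0.72 (SE 0.13, edgeR adjusted p = 0.00792) and OSMR, the oncostatin M receptor, by 0.50 (SE 0.09, edgeR adjusted p = 0.00889). Of 17 transcription factors and regulators tested from a list of 20, 4 rose in that fit, in which 5.21% of all genes passed in either direction. ZC3H12A, which encodes the RNase Regnase-1 that degrades IL6 mRNA, rose by 0.75 (SE 0.12, edgeR adjusted p = 0.00415), CEBPD by 0.55 (SE 0.14, edgeR adjusted p = 0.0371), NFKB2 by 0.46 (SE 0.11, edgeR adjusted p = 0.0363) and NFKBIA, the NF-kappaB inhibitor and target, by 0.39 (SE 0.10, edgeR adjusted p = 0.0385). No gene of these 2 lists passed as lower in it. With siNELFA and no block, none of these genes passed by edgeR or DESeq2 with all libraries, or by edgeR without replicate 1. In the block fit 15 of the 18 receptors and signal carriers and 11 of the 17 regulators were higher. The list medians were 0.18 and 0.17, against 0.01 over all genes, and the share of all genes that were higher was not counted. In the double knockdown against siControl, without a block, ZC3H12A rose by 1.06 (SE 0.15, edgeR adjusted p = 0.0431) from 56.0, 52.0 and 70.6 CPM to 124, 134 and 117.

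Other acute-phase proteins were mostly silent: 6 of the 20 on the list were tested with siNELFA, and C-reactive protein reached at most 0.286 CPM. FTL, the ferritin light chain that stores iron, measured 2694, 2715 and 2627 CPM in siControl replicates 1, 2 and 3. It stood at 4623, 4731 and 4697 CPM with siNELFA, at 4385, 2859 and 2521 with siYAP and at 4142, 4316 and 4159 with both siRNAs. With siNELFA it was the 1 gene of the list that passed by DESeq2, which gave no p for 2 of the 6 tested. FTL rose by 0.81 in the block fit (SE 0.08, edgeR adjusted p = 0.000244) and by 0.64 in the double knockdown (SE 0.08, edgeR adjusted p = 0.0423). SERPINA1, the elastase inhibitor, rose by 0.55 with the block (SE 0.12, edgeR adjusted p = 0.0195), where 5.21% of all genes passed. It stood at 253, 55.9 and 77.1 CPM in siControl, high in replicate 1. With siNELFA and no block, no gene of the list passed by edgeR with all libraries, and FTL alone did without replicate 1.

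**Figure D4:**
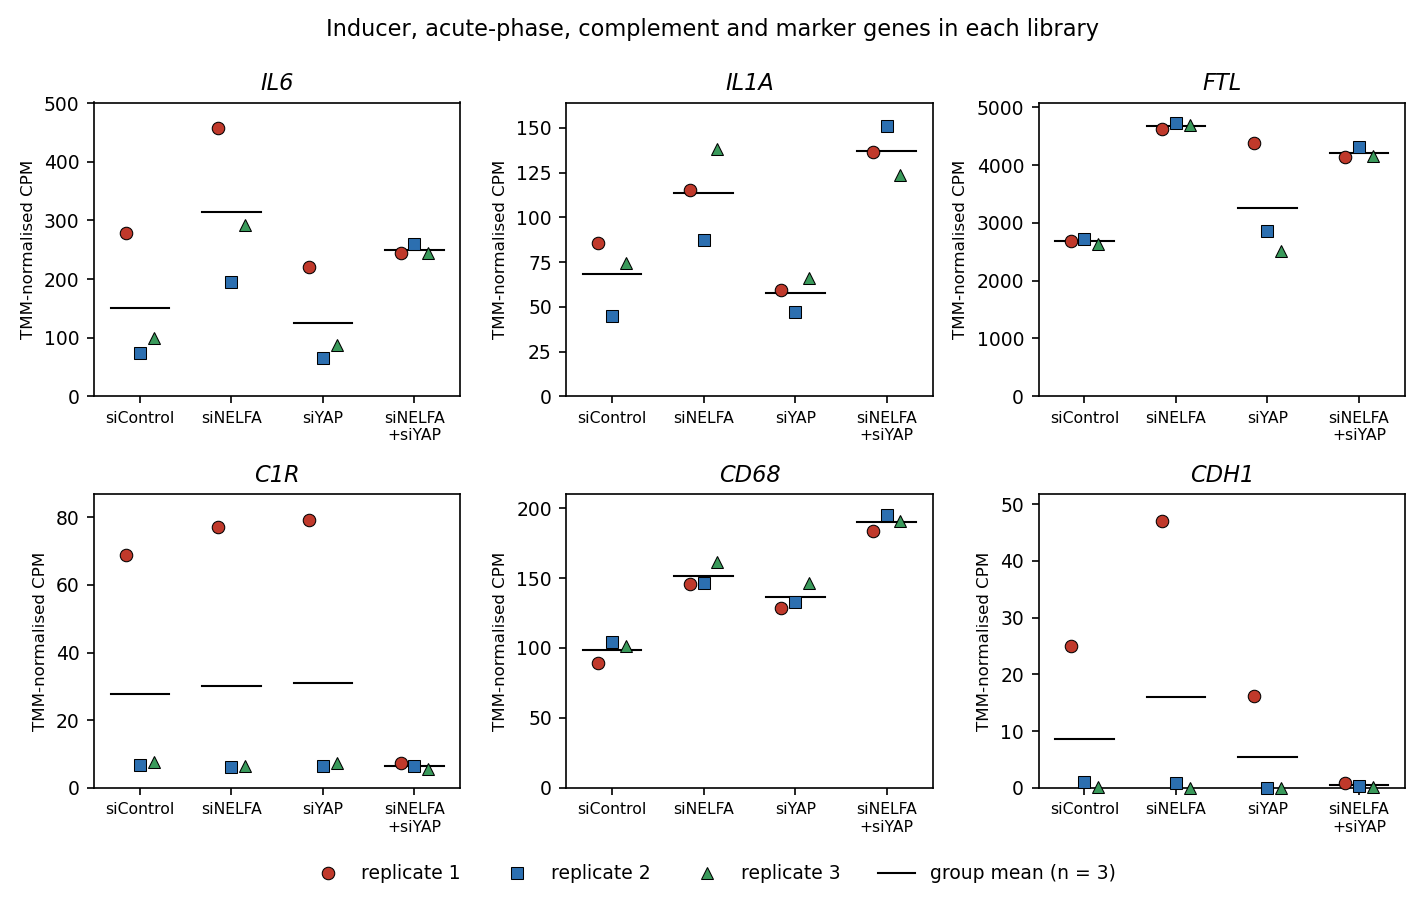
TMM-normalised CPM of IL6, IL1A, FTL, C1R, CD68 and CDH1 in each of the 12 libraries, with replicates 1, 2 and 3 as circles, squares and triangles and the group mean of 3 libraries as a line. FTL separates siNELFA from siControl at 4623 to 4731 against 2627 to 2715 CPM, and C1R and CDH1 are high in replicate 1 of the first 3 groups alone.

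Of 24 other complement genes, 14 were tested with siNELFA and none passed by edgeR with or without the block or by DESeq2, which gave no p for 2 of the 14. In the block fit 4 had an unadjusted p under 0.05, where 20.2% of all genes did, and none without it. What they shared with C3 and CFB was the replicate pattern: in 11 of the 15 that passed the filter over all libraries, replicate 1 of the first 3 groups lay above the other 6 libraries, against 17.3% of all genes. C1R, a protease of the classical pathway chosen here after its values were seen, measured 68.9, 6.83 and 7.61 CPM in siControl replicates 1, 2 and 3. It stood at 77.3, 6.23 and 6.48 CPM with siNELFA, at 79.1, 6.56 and 7.27 with siYAP and at 5.49 to 7.29 with both siRNAs. The membrane regulators CD59, CD46 and CD55 showed it in a milder form, CD59 at 310.4, 186 and 193 CPM in siControl. None of the 7 cytokines that passed the same filter did. The pattern was not confined to complement: 4 of 6 other acute-phase genes, 7 of 17 transcription factors and regulators and 6 of 18 receptors and signal carriers had it. So did 1 of 8 receptors and partners of the members, all 3 tested genes listed as low in MDA-MB-231 cells (CDH1, EPCAM and GATA3) and 0 of the 6 markers of these cells. Of the 15 receptors and partners of the members, such as TLR2 and TLR4, 7 were tested with siNELFA and none passed by edgeR with or without the block or by DESeq2, with 1 at an unadjusted p under 0.05 in the block fit.

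Among the leukocyte markers CD68 was the most abundant, at 89.0, 104.5 and 101 CPM in siControl replicates 1, 2 and 3. It stood at 146, 147 and 161.5 CPM with siNELFA, at 129, 133 and 146.5 with siYAP and at 183, 195 and 191 with both siRNAs. It encodes a lysosomal protein that is abundant in macrophages and present in other cells. It rose by 0.63 with siNELFA in the block fit (SE 0.10, edgeR adjusted p = 0.00473), where 5.21% of all genes passed. With siNELFA and no block it did not pass by edgeR or DESeq2, nor by edgeR without replicate 1. In the double knockdown against siControl CD68 rose by 0.94 (SE 0.11, edgeR adjusted p = 0.0317), where 0.428% of all genes passed. PTPRC and LYZ did not exceed 0.385 CPM. CSF1R, the other leukocyte marker tested, had a log2 fold change of -0.67 with siNELFA in the block fit (SE 0.21, edgeR adjusted p = 0.0904).

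The 5 genes whose log2 CPM was most like that of SAA1 over the 12 libraries, among 12970 others averaging at least 50 counts, were HSPA1B (Pearson r = 0.957), PSMB1 (0.950), COX7A2 (0.946), SGPL1 (0.941) and OAZ1 (0.935). HSPA1B, an inducible HSP70 gene, averaged 71.3 ± 6.70 CPM in siControl, 73.2 ± 10.8 in siYAP, 93.2 ± 6.02 in the double knockdown and 117 ± 14.8 in siNELFA (SD, n = 3), highest in siNELFA and next in siNELFA+siYAP, as SAA1 was. PSMB1, a proteasome subunit, averaged 115 ± 5.76, 109 ± 9.03, 131 ± 5.01 and 142 ± 4.96 CPM in the same order of groups. The 5 genes were picked by their correlation with SAA1 over all 12 libraries, so group levels like those of SAA1 follow from the choice.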

How the data were processed

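RNA-seq was made from MDA-MB-231 cells in 4 siRNA groups of 3 libraries. Per the study's methods and the processing notes, the authors aligned reads with STAR to GRCh38 and deposited raw counts per gene from featureCounts, and they deposited TPM values beside them. How reads in overlapping genes were assigned, and the strand setting, are not given in the sources used here. A further 12 columns of FPKM values were not used. Among the TPM lines, 94 repeat an identifier and none of these is a member.

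Counts were tested with edgeR 4.0.16 in R 4.3.3 (quasi-likelihood test, TMM factors, filterByExpr with a minimum count of 10, a total of 15 and 70% of libraries, Benjamini-Hochberg over all genes tested, threshold 0.05), each comparison on its own 6 libraries and the double against the single knockdowns on all 12. SE is the log2 fold change divided by the root of F. Alternatives were a replicate block, RLE factors, no filter, a mean of at least 50 counts, 1 fit of all 12 libraries, DESeq2 1.42.0, limma 3.58.1 on log2(TPM + 1) and log2(TPM + 0.1) for genes averaging at least 0.1 TPM, and leaving out libraries. In each of the 6 comparisons DESeq2 gave no p for 1 of the 6 members. The scripts were tested on simulated data.

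The members, the 10 gene lists (135 genes) and the tests were chosen with earlier results of these data known. Besides all members, the text names the list genes that passed in the fit with or without the block and the 5 genes most correlated with SAA1. For some lists it also names up to 3 of the most abundant genes. Some further list genes, among them C1R, C2, TNF, PTPRC and TLR2, are named outside these rules. Replicate numbers paired the siControl, siNELFA and siYAP libraries: deviations of same-numbered libraries from their group means correlated at 0.642 to 0.886 over 12971 genes, against -0.0523 to 0.0256 with siNELFA+siYAP. Gene positions are from GENCODE v44 on GRCh38 and figures were drawn with matplotlib 3.10.9.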

Additional observations from a re-analysis of the deposited data

How the results depend on the processing

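Of 282 values recomputed with every library kept, 272 kept their direction. The other 10 turned on the TPM scale, with the same value for both pseudocounts: with siNELFA C3 gave -0.14 and CFB -0.12, with siYAP PTX3 gave -0.06, and for the double against the single knockdowns C3 gave 0.05 and PTX3 0.13. TPM moved the median of all genes by -0.151 and -0.217 with siNELFA, and SAA1 there gave 0.91. The replicate block raised the number of members that passed with siNELFA from 0 to 3, and changed no other call of a member. DESeq2 gave 2 members with siNELFA, and both numbers include SAA1, which was selected on that contrast (2 and 1 without it). DESeq2 also gave 2 with both siRNAs against siControl (SAA1 0.64, adjusted p = 0.00173) and 2 against siYAP (SAA1 0.73, adjusted p = 0.0129). Without a filter edgeR gave 2 against siControl (SAA1 0.63, adjusted p = 0.0469) and 1 against siYAP (SAA1 0.75, adjusted p = 0.0275), and a mean of at least 50 counts or 1 fit of all 12 libraries gave 1 against siControl. In the counts against siControl, SAA1 shares its siControl libraries with its selection. The cause of these changes was not tested.

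Leaving out replicate 1 of siControl, siNELFA and siYAP together turned LCN2 with siNELFA to 0.14, CFB to 0.66 in the double knockdown against siControl, C3 to 0.19 and CFB to 0.17 against siYAP, CFB to 0.41 against siNELFA, and C3 to 0.04 for the double against the single knockdowns. SAA1 then gave 0.59 against siControl and 0.80 against siYAP. Against siControl, siYAP and siNELFA 5, 3 and 1 members passed, where 24.4%, 16.5% and 1.25% of all genes did. The 5 include SAA1, whose selection used the siControl libraries (4 without it).

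With 1 library left out at a time, log2 fold changes with siNELFA ran from -1.43 to 1.47 for LCN2, -0.04 to 0.41 for C3 and -2.21 to 2.58 for CFB. With siYAP they ran from -0.22 to 0.07 for SAA1, -0.47 to 0.26 for SAA2, -1.46 to 1.75 for LCN2, -1.98 to 2.65 for CFB and -0.11 to 0.12 for PTX3. For the double knockdown against siControl they ran from 0.57 to 0.76 for SAA1, -0.01 to 0.63 for SAA2 and -2.30 to 0.66 for CFB, with 0 to 5 members, SAA1 included, passing. Against siYAP they ran from 0.57 to 0.85 for SAA1, -0.23 to 0.19 for C3 and -2.47 to 0.17 for CFB, with 0 to 3 passing. Against siNELFA they ran from -0.08 to 0.32 for C3, -2.41 to 0.41 for CFB and -0.04 to 0.03 for PTX3, with 0 to 1 passing. For the double against the single knockdowns they ran from -0.47 to 0.04 for C3, -4.54 to 0.23 for CFB and -0.12 to 0.10 for PTX3. Replicate 1 of siControl, siYAP and siNELFA was the library behind the highest number passing in each of these contrasts.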
